A study of Homo sapiens with 12 samples.

Results

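In HCT116 cells made to overexpress RNF26, the RNF26 mRNA stood at 17.6 times its control level. Of the 13703 RNAs tested, 1 besides RNF26 passed the test for a difference. On the log2(TPM + 1) scale, 89.3% of them were bounded within a 1.5-fold change. As TPM ratios, 72.2% had a 95% interval within 1.5-fold. The comparison covers 6 of the 12 libraries of the study: 3 of control HCT116 cells (HCT116_con) and 3 of HCT116 cells overexpressing RNF26 (HCT116_ov_RNF26), while the other 6 come from a second colorectal cancer line, HCT15. Of 63036 genes and assembled loci in the deposited expression table, 13703 reached 1 TPM in at least 3 of the 6 HCT116 libraries and were tested. TPM (a transcript's length-corrected share of all transcripts in a library, scaled to a fixed total) is relative by construction, so each value depends on the other RNAs of its library. The labels name no vector, promoter, clone or selection for the RNF26 cells and do not say what the control cells carry. They do not say whether the 3 libraries of an arm came from separate cultures either, so p-values cover only library-to-library spread, which may be technical.

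HCT116 is a human colorectal carcinoma line with near-diploid chromosomes, wild-type p53 and an activating mutation of CTNNB1, the gene for the Wnt effector beta-catenin. RNF26 is a RING-type E3 ubiquitin ligase anchored in the membrane of the endoplasmic reticulum. It is known for holding endosomes and lysosomes near the nucleus through ubiquitinated SQSTM1, and for acting on STING, the adaptor of cytosolic DNA sensing. A ubiquitin ligase acts on proteins, so the mRNA levels measured here are at most a downstream readout of it. In the Wnt pathway, which the study's title names, beta-catenin that escapes degradation joins TCF factors on DNA and drives target genes such as AXIN2 and MYC.

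The 6 libraries resembled each other as closely across the arms as within them. The SD of the log2 difference between 2 libraries over the tested genes was 0.312 to 0.372 for pairs of control libraries, 0.344 to 0.386 for pairs of RNF26 libraries and 0.334 to 0.378 for pairs from different arms. Between 13582 and 13779 genes reached 1 TPM in a library, and mitochondrial genes took 20.2% to 22.5% of the TPM, most in RNF26 replicate 3. Epithelial markers fitted a carcinoma line in part: KRT8 ran from 1371 to 1600 TPM and EPCAM from 193 to 218 TPM, but CDH1 ran from 5.37 to 11.2 TPM and the enterocyte gene VIL1 from 0.32 to 0.55 TPM. Of 29 markers of blood, stromal, muscle and other non-epithelial cells, 8 to 13 were listed at 0 in a library, and their summed level was 17.9 to 20.2 TPM in control and 16.3 to 19.1 TPM in RNF26 libraries. The defining leukocyte gene PTPRC and the T cell, fibroblast and red cell genes CD3E, DCN and HBB were each at or near 0, while the macrophage gene CD68 ran from 6.26 to 9.80 TPM and the globin gene HBA1 from 1.16 to 5.18 TPM. CD68 was lower in the RNF26 libraries without overlap, and its part in the results was not tested. TPM values keep no read depth, and no count of reads stands behind any value here.

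RNF26 itself was measured at 15.6, 18.4 and 16.5 TPM in the control libraries and at 298.5, 334 and 255 TPM in the RNF26 libraries. Every RNF26 library lay far above every control library, as the labels require. The means were 16.8 ± 1.44 TPM and 296 ± 39.4 TPM (SD, n = 3 each). The difference on the log2(TPM + 1) scale was 4.05 with a standard error of 0.103, a 95% interval of 14.03-fold to 19.6-fold, and a limma adjusted p of 7.59e-06. The exact two-sided permutation test gave p = 0.1, the smallest that 3 against 3 libraries allow. Among the tested genes, the rank of RNF26 by mean TPM went from 4975 in control to 382. The gene lies on chromosome 11 at 119334527 to 119337313 of GRCh38, on the plus strand, and the table does not separate introduced from endogenous transcripts.

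**Figure D1:**
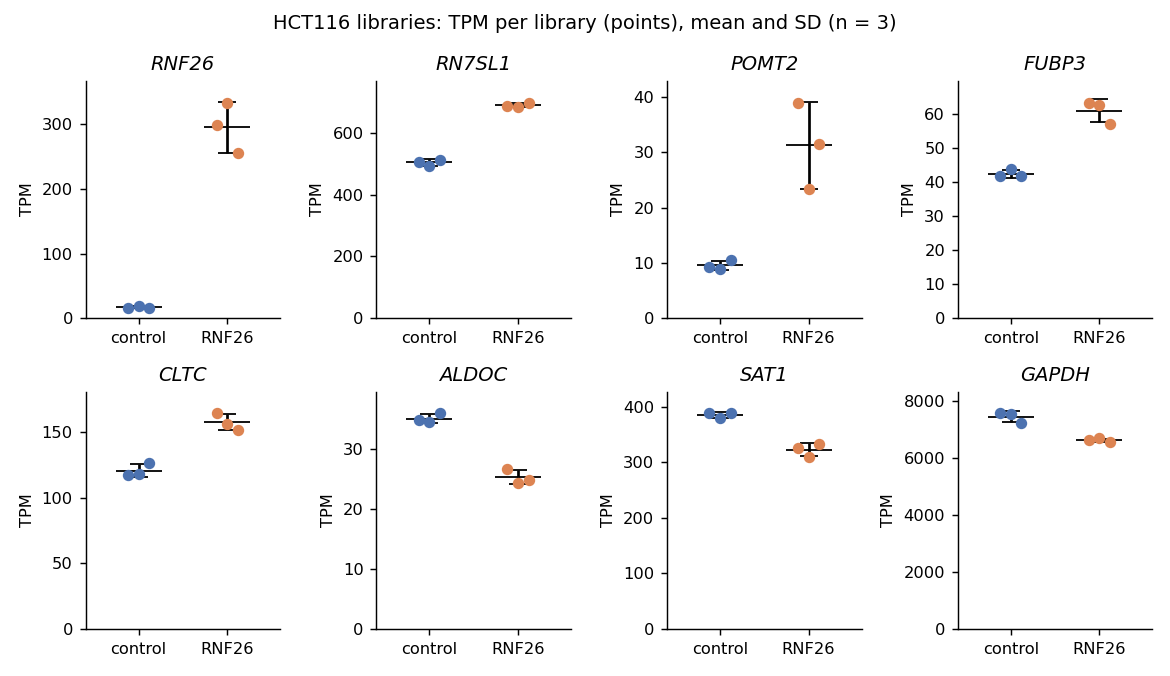
TPM in each HCT116 library (points; control in blue, RNF26 in orange) for 8 genes, with the mean and SD of the 3 libraries of each arm on linear axes that start at 0. RNF26 and RN7SL1 passed the test; POMT2, FUBP3 and CLTC lie higher and ALDOC, SAT1 and GAPDH lower in all 3 RNF26 libraries without passing it.

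Beyond RNF26, limma called 1 gene, so that 2 of 13703 genes (0.0146%) passed at an adjusted p under 0.05; both were higher with RNF26 and 0 were lower. At an unadjusted p under 0.05 there were 1040 genes (7.59%), and the values of the arms did not overlap for 1854 genes (13.5%), of which 1051 lay higher (7.67%) and 803 lower (5.86%) with RNF26. The second called gene was RN7SL1, which encodes the RNA core of the signal recognition particle that guides nascent secretory proteins to the endoplasmic reticulum. It was measured at 505, 494 and 514 TPM in control and at 688, 685 and 698 TPM in RNF26 libraries. The arms were narrow and well apart, with means of 504 ± 10.1 and 690.3 ± 6.98 TPM (SD, n = 3 each). The log2 fold change was 0.45 with a standard error of 0.032, an interval of 1.30-fold to 1.44-fold and a limma adjusted p of 0.00732. This call was not stable: it ended under 9 of 16 alternative settings, with an adjusted p of 0.999 when all 12 libraries shared 1 estimate of the spread, 0.112 with median-ratio scaling and 0.0537, 0.0535, 0.104 and 0.0544 without control replicate 1, control replicate 3, RNF26 replicate 1 or RNF26 replicate 3.

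RN7SL1 shares nearly all of its sequence with RN7SL2 and RN7SL3, so its reads cannot be assigned to it with certainty. RN7SL2 averaged 606 TPM in control against 759 TPM in RNF26 libraries (limma adjusted p = 0.152), and RN7SL3 averaged 34.6 and 62.4 TPM (limma adjusted p = 0.0892); both were named after their values were seen. The sum of the 3 genes ran from 1115 to 1182 TPM in control and from 1490 to 1526 TPM in RNF26 libraries, without overlap. Such RNAs carry no long poly(A) tail, and the libraries were made from poly(A)-selected RNA, per the labels. Some other RNAs without a long poly(A) tail had higher means in the same libraries. RN7SK, an inhibitor of transcription elongation, averaged 119 TPM in control against 204 TPM in RNF26 libraries, and the mitochondrial ribosomal RNA MT-RNR1 averaged 20364 and 24464 TPM. Of the 28 small or structural RNAs at 10 TPM or more, 25 had a log2 change above 0, although 7 of them carry identical values in the table. The 25 include RNA5S1 and a Y RNA gene, whose mean TPM was lower with RNF26 (72.3 against 30.6 and 21.9 against 7.36). The arms of 7 of the 28 (25%, against 13.5% of all genes) did not overlap. The 25 and the 7 both include RN7SL1 with its near copies RN7SL2 and RN7SL3, so these counts are not separate from the RN7SL1 call. The 7064 nuclear genes of this class in the whole table, with mitochondrial RNAs left out, summed to 2967 to 3319 TPM in control and to 3736, 3193 and 4646 TPM in RNF26 libraries, which overlap. That sum includes RN7SL1, RN7SL2 and RN7SL3. The 41 listed histone genes, whose main transcripts also end without a tail, summed to 170 to 193 TPM in control and to 197 to 216 TPM in RNF26 libraries. The level of RNA without a long tail thus moved in part with the arm, and its part in the RN7SL1 call was not tested.

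For most other mRNAs the libraries set a tight bound. The median log2 fold change over the 13703 genes was 0.01, the median absolute change was 0.08, and 7269 genes lay above and 6434 below 0. The median half-width of the 95% interval was 0.25 on the log2 scale, a 1.19-fold change either way. A gene is called bounded here when a pair of one-sided limma tests put its change inside a stated fold, with the larger p adjusted over all genes and under 0.05. By this rule 6255 genes (45.6%) were bounded within a ratio of 5 to 4 either way (5:4), 12237 (89.3%) within 1.5-fold and 13261 (96.8%) within 2-fold. This left 1466 genes without a 1.5-fold bound and 442 without a 2-fold bound; the libraries do not bound these genes, which does not show that they differ. The unadjusted 95% interval lay wholly inside 1.5-fold for 85.8% and inside 2-fold for 95.8%.

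**Figure D2:**
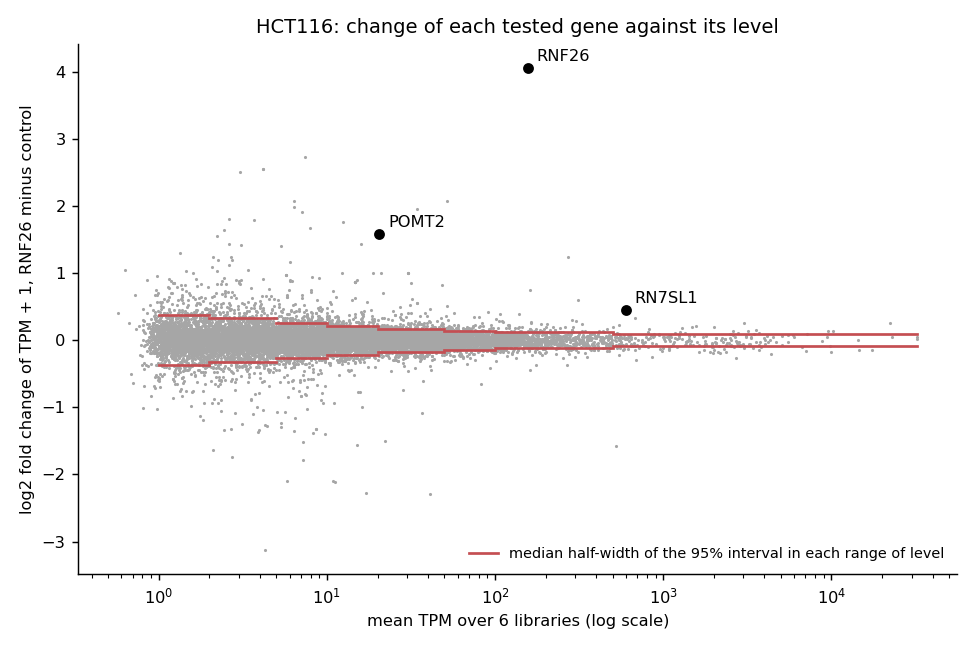
Each point is 1 of 13703 tested genes, with its mean TPM over the 6 libraries on a log axis and its log2 fold change of TPM + 1 (RNF26 minus control); red lines are the median half-width of the 95% interval in each range of level. RNF26 stands alone at 4.05, and the cloud narrows from a half-width of 0.38 between 1 and 2 TPM to 0.09 at 500 TPM or more.

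How tight the bound was depended on the level of the gene. Between 1 and 2 TPM (1727 genes) the median half-width was 1.30-fold, and 2.84% of genes were bounded within 5:4, 70.9% within 1.5-fold and 92.4% within 2-fold. Between 5 and 10 TPM (2385 genes) the half-width was 1.20-fold and 91.1% were bounded within 1.5-fold. Between 20 and 50 TPM (2309 genes) it was 1.13-fold, with 75.9% bounded within 5:4 and 98.2% within 1.5-fold. At 500 TPM or more (234 genes) it was 1.07-fold, and 93.2% were bounded within 5:4 and 99.6% within 1.5-fold. The 1 exception among these 234 was SNHG25, the host gene of a small nucleolar RNA, at 664, 709 and 613 TPM in control against 379, 38.2 and 737 TPM in RNF26 libraries. The RNF26 libraries of this gene lie on both sides of the control libraries, so the arms overlap and the interval is wide.

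The added pseudocount of 1 TPM makes changes of low genes look smaller, and therefore tighter, than they are in TPM itself. When each interval was converted to a ratio of TPM at the control mean, 72.2% of all genes stayed inside 1.5-fold and 89.5% inside 2-fold. On that scale the 1.5-fold share was 8.45% between 1 and 2 TPM, 48.5% between 2 and 5 TPM, 80.8% between 5 and 10 TPM and 93.9% between 10 and 20 TPM. For a gene under 2 TPM, then, these libraries give almost no 1.5-fold bound on the TPM ratio. With a pseudocount of 0.1 the count bounded within 1.5-fold was 10610 (77.4%), and with 5 it was 13399 (97.8%).

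**Figure D3:**
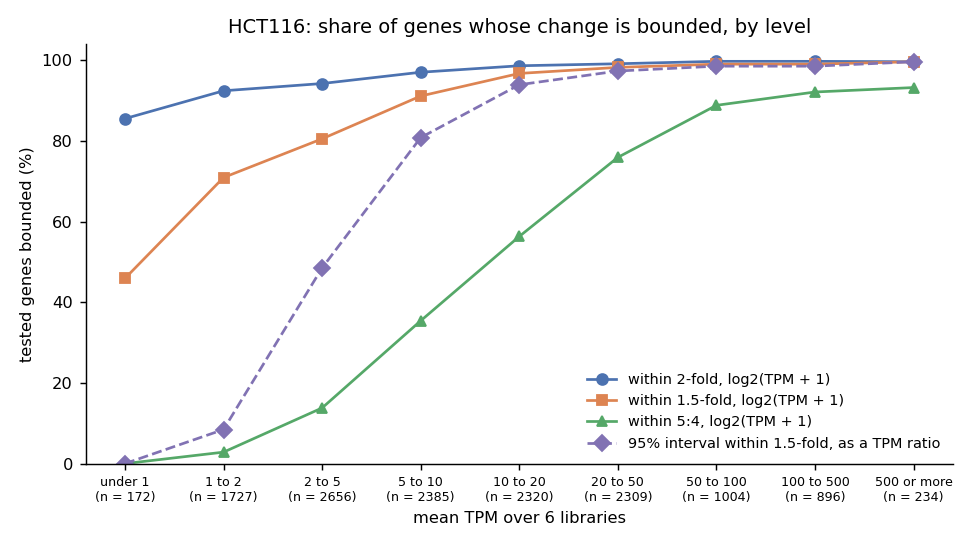
Share of tested genes (percent) whose change was bounded within 2-fold, 1.5-fold and 5:4 on the log2(TPM + 1) scale (solid lines), and whose 95% interval lay within 1.5-fold as a TPM ratio (dashed line), in 9 ranges of mean TPM with the number of genes under each. The dashed line climbs from 8.45% between 1 and 2 TPM to 93.9% between 10 and 20 TPM, where it comes close to the solid 1.5-fold line at 96.7%.

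Abundant genes, whose intervals are narrower, had low unadjusted p more often than rare ones. The share with an unadjusted p under 0.05 was 4.92% between 1 and 2 TPM and 28.6% at 500 TPM or more, and the share with arms that do not overlap was 10.8% and 35.9%. The median absolute log2 change in these ranges was 0.12 and 0.07, beside median half-widths of 0.38 and 0.09. A measured change includes the spread between libraries, which was wider for rare genes. These medians therefore do not say at which level the underlying differences were larger. None of the 234 genes at 500 TPM or more passed the adjusted test except RN7SL1.

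The bounds also differed by class of RNA. Of 11669 protein-coding genes, 94.4% were bounded within 1.5-fold and 99.2% within 2-fold. Of 1083 long noncoding RNAs, 65.5% and 90.8% were, with a median level of 2.25 TPM against 12.2 TPM for the protein-coding genes. Among 365 pseudogenes the shares were 52.3% and 74.8%. Among 93 small or structural RNAs they were 12.9% and 20.4%, with a median half-width of 2.27-fold. For the 28 of these at 10 TPM or more the 1.5-fold share was still 14.3%, against 98.9% of the 6507 protein-coding genes at that level, so the gap was present above the same minimum level too. The widest intervals at 10 TPM or more belonged mostly to this class, to RNA5S1 and RNA5S6 (5S ribosomal RNA), RNY3 and SNORD13 among others.

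Of those 6507 abundant protein-coding genes, 6492 (99.8%) were bounded within 2-fold. Their median absolute log2 change was 0.06, 13 of them had a change over 0.5, and 2, RNF26 and POMT2, had one over 1. Of the 15 without a 2-fold bound, RNF26 and POMT2 had arms well apart, while LCOR shows a pattern in which 1 library stands away from the rest of its arm. LCOR, a ligand-dependent nuclear receptor corepressor, was measured at 11.7, 13.4 and 13.1 TPM in control and at 38.1, 13.99 and 13.5 TPM in RNF26 libraries, so that RNF26 replicate 1 alone is high. EXOC6, a subunit of the exocyst that tethers secretory vesicles, ran at 16.2, 35.9 and 9.26 TPM in control and at 9.83, 9.45 and 10.7 TPM in RNF26 libraries, where the spread lies in the control arm. Others among the 15 were CDK10, EHMT1, LHFPL3, TBC1D22A, SERF1B, USP13 and IMMP1L, and these as well as LCOR and EXOC6 were listed because they lack a bound, not by the rule for named genes.

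The tightest bounds within 5:4 belonged to LGALS1 (galectin 1), CFL1 (cofilin, an actin-severing protein), RPL30, CNBP and RPL41. CNBP, a nucleic acid binding protein, was measured at 373.5, 373.5 and 375 TPM in control against 379, 373 and 371 TPM in RNF26 libraries. Its interval ran from 0.952-fold to 1.05-fold. LGALS1 averaged 1790 ± 21.1 and 1771 ± 18.5 TPM (SD, n = 3 each), with an interval from 0.946-fold to 1.04-fold.

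POMT2 came closest to a call among protein-coding genes. It encodes a protein O-mannosyltransferase of the endoplasmic reticulum that glycosylates dystroglycan. It was measured at 9.22, 8.94 and 10.6 TPM in control against 39.0, 23.4 and 31.5 TPM in RNF26 libraries. The arms do not overlap, but the RNF26 libraries spread widely, with means of 9.57 ± 0.86 and 31.3 ± 7.82 TPM (SD, n = 3 each). The log2 difference was 1.58, the interval 2.28-fold to 3.94-fold and the limma adjusted p 0.0861, which did not pass. It passed with a filter of 5 TPM (adjusted p = 0.0273), among protein-coding genes alone (0.0159) and without RNF26 replicate 2 (0.00701). POMT1, its partner in the same enzyme, averaged 6.02 TPM in control against 5.39 TPM in RNF26 libraries.

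FUBP3, a single-stranded nucleic acid binding protein, was measured at 41.7, 43.7 and 41.7 TPM in control and at 63.2, 62.6 and 56.9 TPM in RNF26 libraries, without overlap. Its log2 difference was 0.51, the interval 1.30-fold to 1.57-fold and the limma adjusted p 0.0861. It passed under 4 alternatives, among them median-ratio scaling (adjusted p = 0.0360) and quantile normalization (0.0393). CLTC, the clathrin heavy chain, was measured at 117, 118 and 127 TPM in control and at 164, 156 and 152 TPM in RNF26 libraries, with an interval of 1.20-fold to 1.41-fold (limma adjusted p = 0.144). Of the clathrin light chains, CLTA had overlapping arms, and CLTB averaged 61.8 and 52.6 TPM, lower without overlap (unadjusted p = 0.0239, limma adjusted p = 0.607). The 7 other genes picked by the naming rule on the higher side, FAU, EFR3A, HMGN5, POLR3E, HNRNPH1, UBE2V1 and UTP23, had log2 differences of 0.20 to 0.41 and limma adjusted p of 0.248 to 0.391.

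On the lower side the smallest p among all genes belonged to RNVU1-26, a variant U1 small nuclear RNA listed at 12.3, 3.65 and 9.73 TPM in control and at 0 in all 3 RNF26 libraries (limma adjusted p = 0.0861). It was called with a pseudocount of 0.1 and without control replicate 2. Among protein-coding genes ALDOC, the brain-type aldolase of glycolysis, had the smallest p. It was measured at 34.9, 34.6 and 36.0 TPM in control and at 26.7, 24.4 and 24.9 TPM in RNF26 libraries, without overlap. The log2 difference was -0.46, the interval 0.663-fold to 0.80-fold and the limma adjusted p 0.133. SAT1, which acetylates polyamines for export, averaged 385 ± 4.76 and 322 ± 11.2 TPM (limma adjusted p = 0.210), and STN1, a subunit of the telomere CST complex, averaged 29.3 and 23.4 TPM (limma adjusted p = 0.316). CKMT1B, a mitochondrial creatine kinase, averaged 38.5 and 28.7 TPM, but its near-identical copy CKMT1A averaged 24.1 and 21.6 TPM with overlapping arms, so the split between the copies is uncertain. GAPDH was measured at 7560.5, 7535 and 7208 TPM in control and at 6613, 6678 and 6567 TPM in RNF26 libraries, an interval of 0.849-fold to 0.934-fold (limma adjusted p = 0.342). RPL23A, RPS21, S100A6, IFITM3 and MT-ND4 completed the 10, with log2 differences of -0.26 to -0.16. None of the 10 from ALDOC to MT-ND4 passed. RNVU1-26 and MROH5 were named after their values were seen. MROH5, annotated as a pseudogene, averaged 18.1 and 3.77 TPM (limma adjusted p = 0.201) and was called without RNF26 replicate 2.

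The functional groups were read against 37 gene lists. Their 1086 tested members, each counted once, held 0 calls against 0.0146% of all genes, and 128 (11.8%, against 7.59% of all genes) had an unadjusted p under 0.05. The arms of 189 (17.4%, against 13.5%) did not overlap. Of the 1086 members 1045 were bounded within 1.5-fold and 1081 within 2-fold. List medians ran from -0.07 to 0.19 on the log2 scale, against 0.01 for all genes, and 35 of the 37 lay within 0.07 of 0. The lists hold well-expressed genes, with a median of 35.3 TPM against 9.76 TPM over all tested genes, and intervals are narrower at higher levels.

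**Figure D4:**
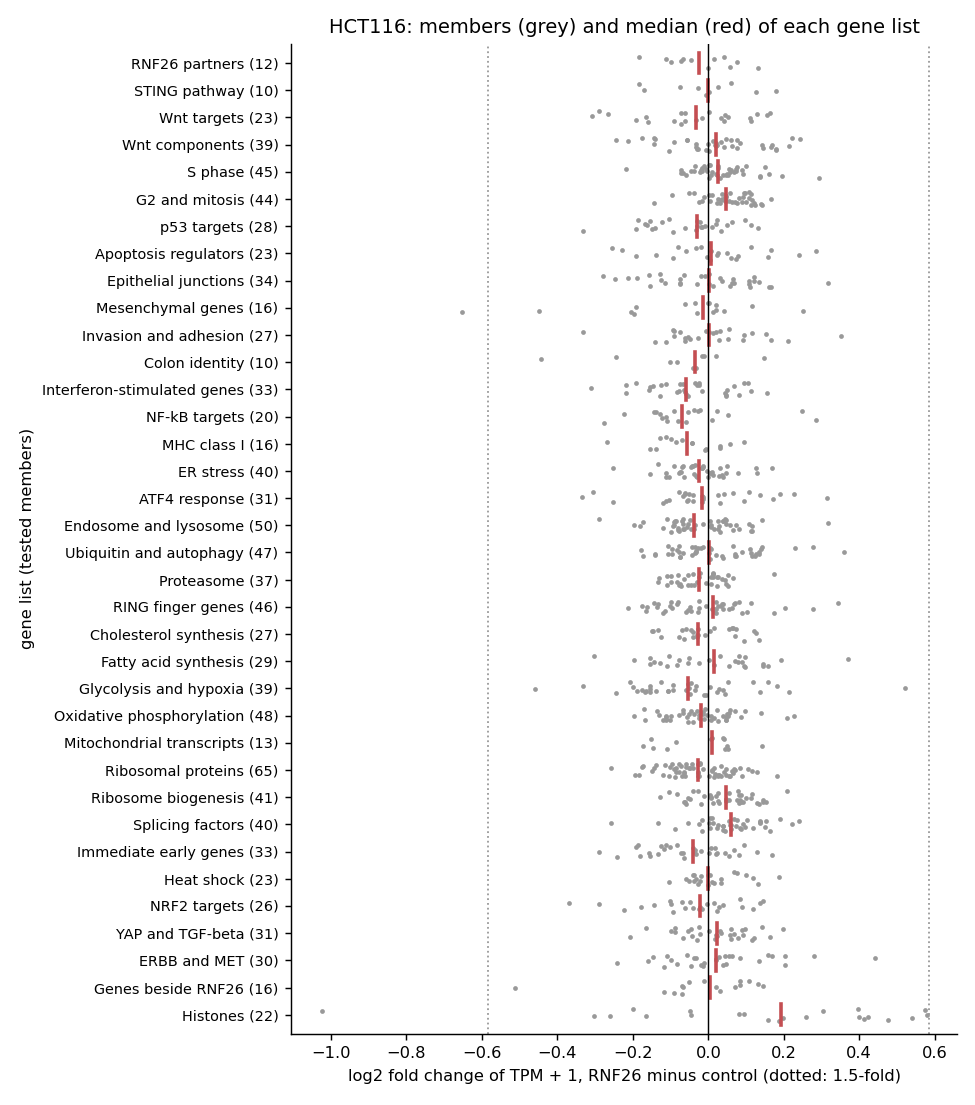
Log2 fold change of TPM + 1 (RNF26 minus control) of every tested member (grey points) and the median (red bar) of 36 gene lists, with the number of tested members in brackets and dotted lines at 1.5-fold. The medians lie near 0 except for the histone genes at 0.19, and few points outside that list come near the dotted lines.

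The mRNAs of proteins that RNF26 is known to work with stayed close to their control levels. All 12 listed partners were tested, all 12 were bounded within 1.5-fold and 9 within 5:4; the lowest interval bound was 0.73-fold and the highest 1.30-fold. SQSTM1, the autophagy receptor that RNF26 ubiquitinates, was measured at 156.5, 156 and 158.5 TPM in control and at 141, 163 and 137 TPM in RNF26 libraries. TMEM33, an endoplasmic reticulum membrane protein, averaged 53.8 ± 2.67 and 52.1 ± 2.73 TPM (SD, n = 3 each). STING1, the DNA-sensing adaptor, was low, at 4.68, 5.26 and 6.07 TPM in control against 5.02, 4.36 and 4.31 TPM in RNF26 libraries. The arms of SQSTM1, TMEM33 and STING1 overlapped. Those of 3 of the 12 partners (25%, against 13.5% of all genes) did not: EPS15, an endocytic adaptor, averaged 13.3 and 14.1 TPM, ENDOD1 20.9 and 19.8 TPM, and TMEM43 18.6 and 17.1 TPM. None of the 12 had an unadjusted p under 0.05 in limma's test, against 7.59% of all genes. The 10 tested genes of the STING pathway, which share STING1 with the partners, were all bounded within 1.5-fold, and DDX41 and IRF3 were their most abundant members.

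The endosome and lysosome genes, the ubiquitin and autophagy genes and the proteasome behaved alike in that 49 of 50, 46 of 47 and 37 of 37 were bounded within 1.5-fold. VAPA, a tether between the endoplasmic reticulum and other membranes, averaged 208 TPM in control against 196 TPM in RNF26 libraries. RAB11A, a GTPase of recycling endosomes, averaged 199.8 and 200.5 TPM. The polyubiquitin gene UBB averaged 2878 TPM in control and 2723 TPM in RNF26 libraries, and UBA6, a ubiquitin-activating enzyme, 34.3 and 44.5 TPM. Of 46 other RING finger genes 45 were bounded within 1.5-fold; RNF114 had the largest difference at 5 TPM or more, with 25.8 ± 2.15 and 33.0 ± 2.09 TPM and an unadjusted p of 0.00298 that did not survive adjustment (limma adjusted p = 0.453). Among the 40 genes of the endoplasmic reticulum stress response all were bounded within 1.5-fold, with the chaperones HSP90B1 at 541 and 552 TPM and HSPA5 at 323 and 317 TPM. DDIT3, the stress-induced transcription factor CHOP, averaged 23.3 and 19.5 TPM. Of 31 genes of the ATF4 response 30 were bounded within 1.5-fold.

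The title of the study points to the Wnt pathway, and 23 of 35 listed Wnt target genes were expressed enough to test. None was called, against 0.0146% of all genes, and 1 (4.35%, against 7.59% of all genes) had an unadjusted p under 0.05. Of the 23, 12 were bounded within 5:4, 21 within 1.5-fold and all within 2-fold on the log2(TPM + 1) scale. The median was -0.03, with 10 members above and 13 below 0, and the interval bounds ran from 0.626-fold to 1.35-fold. As TPM ratios, 16 of the 23 intervals lay within 1.5-fold and 22 within 2-fold, and that of NOTUM ran from 0.474 to 1.06. LGR5, ASCL2, NKD1, LEF1, SP5, DKK4, APCDD1, EPHB3, TNFRSF19, WIF1, PROX1 and CEMIP stayed under the filter, so nothing is said of them.

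Members beyond DKK1, CD44 and JUN are named here after their values were seen. AXIN2, the scaffold of the destruction complex and the most general Wnt target, was measured at 3.11, 4.12 and 3.81 TPM in control and at 3.91, 3.93 and 3.55 TPM in RNF26 libraries. The arms overlap and the interval ran from 0.851-fold to 1.24-fold, or from 0.810 to 1.31 as a TPM ratio. MYC was measured at 143, 151 and 137 TPM in control and at 144, 156 and 132.5 TPM in RNF26 libraries, with an interval of 0.898-fold to 1.12-fold around a difference of 0.00. CCND1, the G1 cyclin, averaged 89.0 ± 3.68 and 96.3 ± 5.91 TPM (SD, n = 3 each), with an interval of 0.981-fold to 1.19-fold. FOSL1, an AP-1 subunit, was the member with an unadjusted p under 0.05: it was measured at 41.5, 43.8 and 42.5 TPM in control and at 48.0, 47.2 and 44.8 TPM in RNF26 libraries (limma adjusted p = 0.638). DKK1, a secreted Wnt inhibitor, was measured at 271, 269 and 274 TPM in control and at 252, 267 and 246.5 TPM in RNF26 libraries. Its arms do not overlap, and its interval of 0.879-fold to 1.00-fold reaches 1. CD44 averaged 189 and 181 TPM, and BIRC5 87.0 and 89.0 TPM. The 2 members without a 1.5-fold bound were NOTUM, a Wnt-inactivating enzyme, at 2.46 and 1.79 TPM, and JUN, at 6.16 and 4.92 TPM, and both have overlapping arms.

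**Figure D5:**
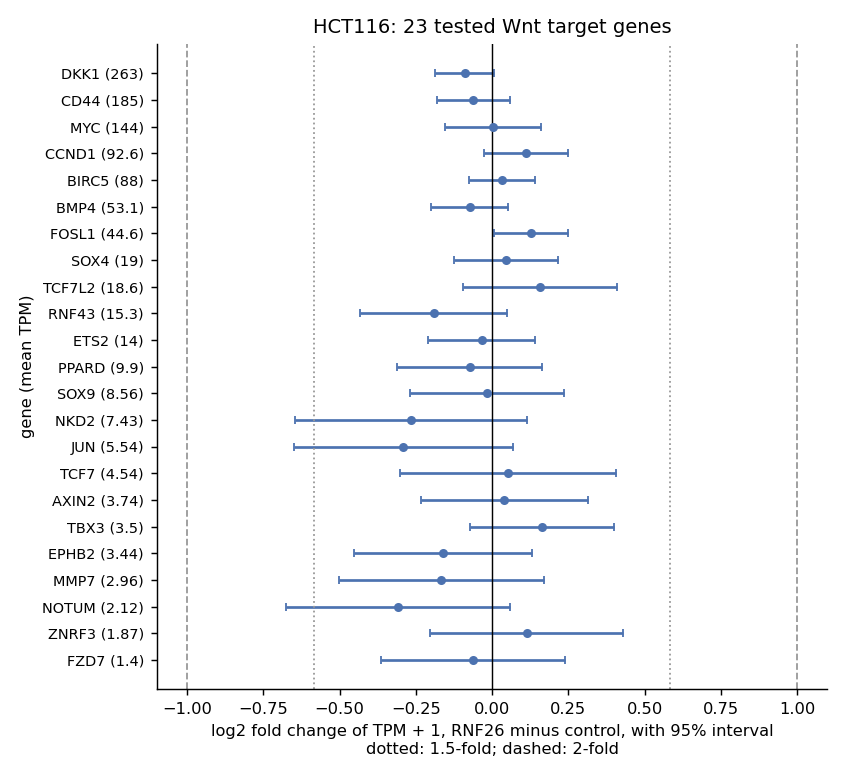
Log2 fold change of TPM + 1 (RNF26 minus control) with its 95% interval for the 23 tested Wnt target genes, ordered by mean TPM, which follows each name; dotted lines mark 1.5-fold and dashed lines 2-fold. Intervals widen toward the low genes at the bottom, and those of NKD2, JUN and NOTUM cross the lower 1.5-fold line while none reaches 2-fold.

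The pathway's own components gave the same picture. Of 39 tested receptors, destruction complex members and transcription factors, 38 were bounded within 1.5-fold and 39 within 2-fold, with a median of 0.02. CTNNB1 averaged 210 ± 3.67 TPM in control and 206 ± 6.27 TPM in RNF26 libraries, an interval of 0.921-fold to 1.05-fold. CSNK1A1, the kinase that primes beta-catenin for degradation, was measured at 108, 109 and 120 TPM in control and at 132, 133 and 127.5 TPM in RNF26 libraries, without overlap (log2 difference 0.22, unadjusted p = 0.00364, limma adjusted p = 0.459). The member without a 1.5-fold bound was GSK3B, at 28.7 ± 9.24 and 32.4 ± 10.3 TPM.

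Growth and survival genes were bounded closely. All 45 S phase genes and all 44 genes of G2 and mitosis were bounded within 1.5-fold, 36 and 39 of them within 5:4. PCNA, the replication clamp, averaged 514 ± 9.69 and 517 ± 9.16 TPM (SD, n = 3 each). RRM2, a ribonucleotide reductase subunit, was measured at 280, 239 and 251 TPM in control and at 306, 331 and 304 TPM in RNF26 libraries, without overlap (limma adjusted p = 0.428). Of the genes of G2 and mitosis 37 lay above and 7 below 0, at a median of 0.05; BUB3, a spindle checkpoint protein, averaged 361 and 372 TPM. CKS2, a subunit of cyclin-dependent kinases, was measured at 428, 405 and 395 TPM in control and at 389.5, 353 and 368 TPM in RNF26 libraries, lower without overlap (unadjusted p = 0.0206, limma adjusted p = 0.586). All 28 p53 targets and all 23 apoptosis regulators were bounded within 1.5-fold. CDKN1A, the p21 cell cycle inhibitor, averaged 144 and 130 TPM, and GDF15, a stress cytokine, 60.1 and 47.7 TPM; both have arms that do not overlap and neither passed (limma adjusted p = 0.585 for each). Of 30 genes of the ERBB, MET and growth factor group 28 were bounded within 1.5-fold. EREG, an EGFR ligand, was measured at 94.0, 95.2 and 96.2 TPM in control and at 123, 118 and 107 TPM in RNF26 libraries (limma adjusted p = 0.392). All 31 YAP and TGF-beta genes and 31 of 33 immediate early genes were bounded within 1.5-fold.

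The title also names metastasis. Of 34 epithelial junction genes 33 were bounded within 1.5-fold, of 16 tested mesenchymal genes 13, and of 27 invasion and adhesion genes 25. All were bounded within 2-fold on the log2(TPM + 1) scale. As TPM ratios, the 95% intervals of 33, 13 and 25 genes of these lists lay within 2-fold. ITGB1, the beta1 integrin, averaged 195.4 and 194.7 TPM. VIM, the mesenchymal filament protein, was low at 3.18 and 2.65 TPM, and SNAI1 averaged 4.37 TPM in both arms; both are named after their values were seen. The mesenchymal members without a 1.5-fold bound were COL1A1, ACTA2 and TAGLN. ACTA2, smooth muscle actin, averaged 2.15 and 1.31 TPM, and TAGLN, an actin-binding smooth muscle gene, 2.51 and 1.24 TPM. Both had arms that do not overlap, with unadjusted p of 0.0120 and 0.00156 in limma's test. As TPM ratios their intervals ran from 0.396 to 0.873 and from 0.316 to 0.708. Of 10 tested genes of colon identity 9 were bounded within 1.5-fold, and the exception was CDX2, an intestinal transcription factor. It was measured at 5.69, 5.73 and 6.14 TPM in control and at 4.15, 4.60 and 3.44 TPM in RNF26 libraries (log2 difference -0.44, limma adjusted p = 0.495).

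Immune and stress genes had medians slightly below 0 and no call. Of 33 interferon-stimulated genes 31 were bounded within 1.5-fold, with 10 above and 23 below 0 and a median of -0.06. IFITM3, an antiviral membrane protein, was measured at 597, 593 and 571 TPM in control and at 493.5, 530 and 491 TPM in RNF26 libraries, without overlap (limma adjusted p = 0.386), and ISG15 averaged 296 and 271 TPM. All 20 NF-kB targets and all 16 MHC class I genes were bounded within 1.5-fold, with medians of -0.07 and -0.06. CALR, a chaperone of class I loading, averaged 685 and 665 TPM, and B2M, the class I light chain, 627 and 625 TPM. All 23 heat shock genes and 25 of 26 NRF2 targets were bounded within 1.5-fold, and HSP90AB1 averaged 2847 and 2803 TPM.

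No gene of the metabolic lists was called, and the share with an unadjusted p under 0.05, 7.59% over all genes, is given for each. Of 39 glycolysis and hypoxia genes 37 were bounded within 1.5-fold, 27 lay below 0, 9 (23.1%) had an unadjusted p under 0.05 and 12 (30.8%, against 13.5% of all genes) had arms that do not overlap, led by ALDOC and GAPDH. The median was -0.06, and ENO1, enolase, averaged 2217 and 2078 TPM. All 48 nuclear genes of oxidative phosphorylation and all 13 mitochondrial mRNAs were bounded within 1.5-fold, 44 and 13 of them within 5:4. An unadjusted p under 0.05 was found for 11 (22.9%) and 5 (38.5%). That share was 15.3% of all genes between 100 and 500 TPM and 28.6% at 500 TPM or more, the ranges of these list medians. NDUFS8, a subunit of complex I, averaged 110 and 129 TPM without overlap (limma adjusted p = 0.563). MT-ATP8 averaged 32375 and 32629 TPM. All 27 cholesterol synthesis genes and 27 of 29 fatty acid genes were bounded within 1.5-fold, and 1 (3.70%) and 4 (13.8%) had an unadjusted p under 0.05. SCD, the stearoyl-CoA desaturase, averaged 326 and 327 TPM, and BSCL2, the lipid droplet protein seipin, 55.1 and 44.5 TPM.

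All 65 ribosomal protein genes were bounded within 1.5-fold and 61 within 5:4, with 26 above and 39 below 0. An unadjusted p under 0.05 was found for 19 (29.2%), near the 28.6% of all genes at 500 TPM or more, the range of the list's median. RPS21 was measured at 2945, 2853 and 3100 TPM in control and at 2544, 2334 and 2562 TPM in RNF26 libraries (limma adjusted p = 0.381). All 41 genes of ribosome biogenesis and all 40 splicing factors were bounded within 1.5-fold, with medians of 0.05 and 0.06. Of the splicing factors 33 lay above 0 and 13 had arms that do not overlap, a share of 32.5% against 13.5% of all genes and 20.9% of genes between 100 and 500 TPM, the range of the list's median. The splicing factor with the smallest p, HNRNPH1, was measured at 509, 515 and 488 TPM in control and at 607, 598 and 561 TPM in RNF26 libraries (limma adjusted p = 0.386). HNRNPA1, a splicing repressor, averaged 2018 and 2073 TPM.

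Histone genes had the widest median interval of the 37 lists, with 7 of 22 bounded within 1.5-fold and 18 within 2-fold. Their median was 0.19, and 15 lay above 0. H2BC12 was the most abundant at 57.6 ± 7.87 and 61.2 ± 4.05 TPM, and H4C1 averaged 25.9 and 35.2 TPM with overlapping arms. H2AC17 was measured at 3.14, 3.83 and 2.47 TPM in control and at 5.34, 5.46 and 4.21 TPM in RNF26 libraries, without overlap (unadjusted p = 0.00847, limma adjusted p = 0.550). Of the 22 members 7 (31.8%, against 7.59% of all genes) had an unadjusted p under 0.05. The median ran from 0.09 to 0.37 over the alternative settings.

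The genes that flank RNF26 on chromosome 11 held no call, against 0.0146% of all genes. Of 16 tested neighbours 15 were bounded within 1.5-fold and 16 within 2-fold, with 8 above and 8 below 0 and a median of 0.00. RPS25 averaged 2543 and 2673 TPM and H2AX, the DNA damage histone, 108 and 105 TPM. The member without a 1.5-fold bound was MCAM, a cell adhesion molecule. It was measured at 10.8, 19.9 and 11.9 TPM in control against 9.95, 9.71 and 8.28 TPM in RNF26 libraries. Control replicate 2 stands apart, and the arms do not overlap. MCAM was the 1 member (6.25%, against 7.59% of all genes) with an unadjusted p under 0.05 (0.0387, limma adjusted p = 0.637). As TPM ratios, 15 of the 16 intervals lay within 2-fold, and that of MCAM ran from 0.468 to 0.975.

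The bounds differ from those in HCT15, where RNF26 averaged 27.0 TPM in control and 54.2 TPM in overexpressing cells. With all 12 libraries in 1 fit of the same 13703 genes, HCT116 had 1 call and 88.1% of genes bounded within 1.5-fold, and HCT15 had 5393 calls (39.4%) and 52.0% bounded. That fit gives each gene 1 spread for both lines, although the HCT15 control libraries spread more. For HCT116 the median half-width was 0.245 in its own 6 libraries and 0.265 in this fit. Genes with an unadjusted p under 0.05 numbered 1040 and 597. Intervals from this fit can thus be too wide for HCT116 and too narrow for HCT15. The difference between the RNF26 effects of the lines passed the test for 3117 genes (22.7%), of which 250 were higher and 2867 lower in HCT15. Scaling matters to this comparison: median-ratio scaling moved the median HCT15 change from -0.18 to 0.00 and left 2052 such genes, 895 higher and 1157 lower, with 62.0% of genes bounded within 1.5-fold in HCT15. The larger RNF26 ratio in HCT116 thus stood beside fewer calls than the smaller ratio in HCT15, under the deposited scale and under median-ratio scaling.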

How the data were processed

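Poly(A)-selected RNA of HCT116 and HCT15 cells was sequenced as stranded paired libraries, per the labels' protocols. The deposited table holds TPM values (length-corrected shares of each library, scaled to a fixed total), which the authors made with fastp, HISAT2, StringTie and RSEM on GRCh38, per the submitters' processing notes; their versions, their roles and the annotation release were not given in the sources used here. TPM keeps no read depth, so no count test was possible and the depth per library is unknown.

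Genes with at least 1 TPM in at least 3 of the 6 HCT116 libraries were tested on log2(TPM + 1) with limma 3.58.1 in R 4.3.3 (empirical Bayes with a trend, 4 residual and 3.53 prior degrees of freedom, Benjamini-Hochberg adjustment, threshold 0.05). Fold changes are on that scale and understate changes of low genes. Intervals are 95% and unadjusted; bounds use 2 one-sided moderated tests against 1.25-fold, 1.5-fold or 2-fold, with adjustment of the larger p. The scripts were tested on simulated data. Gene classes come from GENCODE v29, and 157 tested identifiers had no symbol.

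The members, the 37 gene lists and the tests were chosen with earlier results of these data known. Named genes are RNF26, called genes, the 10 of smallest p each way among genes at 5 TPM or more with arms that do not overlap and a symbol that is no clone, antisense, small RNA, readthrough or pseudogene name, each list's 2 most abundant members and its largest change at 5 TPM or more, and the 10 widest and 5 tightest bounds at 10 TPM or more. Genes named outside this rule (POMT1, CLTA, CLTB, CKMT1A, RNVU1-26, MROH5, RN7SL2, RN7SL3, RN7SK, MT-RNR1, SNHG25, VIM, SNAI1, the 3 partners with arms apart, sample markers, Wnt targets so marked, and genes without a bound) were chosen after their values were seen. At the filter's edge, 435 genes reached 1 TPM in exactly 3 libraries (mean 0.575 to 34.4 TPM) and 557 in exactly 2 (mean 0.36 to 38.5 TPM). Some genes are not reported here. Replicate numbers did not pair the libraries. Alternatives changed the pseudocount, the filter, the scaling, the variance model, the libraries fitted and the block.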

Additional observations from a re-analysis of the deposited data

Results flagged for a closer look

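The effect of RNF26 overexpression differed between the lines for several of the genes named above, by limma's test of the difference itself over 12 libraries (HCT15 minus HCT116, log2 scale). Apart from RNF26, these genes were named for a small p in HCT116, and the test uses the same HCT116 values. A weaker or opposite effect in HCT15 was therefore favoured by the choice of genes, and the p-values do not allow for that choice. For RNF26 the difference was -3.07 (4.05 in HCT116 and 0.98 in HCT15, adjusted p = 6.14e-07). POMT2 differed by -2.36 (1.58 and -0.78, adjusted p = 0.00664), POLR3E by -1.11 (0.28 and -0.83, adjusted p = 0.00301), FUBP3 by -1.03 (0.51 and -0.52, adjusted p = 0.0155) and HMGN5 by -0.91 (0.41 and -0.50, adjusted p = 0.0122). Smaller differences were -0.41 for CLTC (adjusted p = 0.0111), -0.39 for EFR3A (0.0356), 0.60 for SAT1 (0.00179) and 0.33 for STN1 (0.0269). For RN7SL1 no difference was detected (0.45 and 0.47, interval of the difference -0.37 to 0.42), in a fit that gives both lines 1 spread. Over all genes the effects differed for 3117 (22.7%), of which 2867 were lower in HCT15. The differences given for single genes are on the deposited scale, where the median difference over all genes was -0.19. With median-ratio scaling that median was -0.01, and 2052 genes differed, 895 higher and 1157 lower in HCT15. The groups hold 3 libraries each, too few for a check for single outlying libraries.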

How the results depend on the processing

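The RNF26 rise kept its call under all 17 alternatives, with a log2 change of 3.78 to 4.15. The 2 calls became 1 without a filter, with all 12 libraries in the fit and with the replicate block, and 5 with a filter of 5 TPM and with quantile normalization; leaving out each library in turn gave 1 to 6. With the replicate block 12320 genes were bounded within 1.5-fold, and same-numbered libraries did not deviate together (correlations of -0.03, -0.02 and 0.01). Without a filter 32078 genes were tested, and 27968 were bounded within 1.5-fold and 30811 within 2-fold. Leaving out each library in turn left 11689 to 11811 genes bounded within 1.5-fold, and the median half-width ran from 0.16 to 0.29 over all alternatives. Besides RN7SL1, POMT2 and FUBP3, the calls of FAU and MT-ND4 depended on the scaling, passing with quantile normalization alone (adjusted p = 0.0471 each). Of 628 list medians under alternatives, 616 moved by less than the spread between libraries. The genes that differed between the lines numbered 2052 with median-ratio scaling and 1761 with quantile normalization, against 3117; the cause was not tested. Analysis of protein-coding genes alone was added after the data were seen. At 3 libraries an arm and with the depth unknown, changes under about 1.3-fold on the log2(TPM + 1) scale were mostly not bounded for genes under 2 TPM. As TPM ratios the limit was wider. Between 1 and 2 TPM, 8.45% of the intervals lay within 1.5-fold and 58.1% within 2-fold.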
